A study of Mus musculus with 37 samples.

Results

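The genes described here are 9 genes of the contractile apparatus and of mesangial and smooth muscle cells, out of 32108 genes in the deposited count table. They were taken by symbol: Acta2, Tagln, Tpm2, Cnn1, Flnc, Myh11, Myl9, Des and Pdgfrb, each present once. The rule uses the symbols alone, but the genes and the further gene lists below were chosen with earlier results of these data known. Shares called are therefore set beside those of all tested genes as a description. In the type 2 diabetes model Tagln and Acta2 were higher in diabetic libraries at both ages, and Pdgfrb, Des and Flnc also passed the test at the later age. Several of these calls were lost when single libraries were left out. At the early age none of the 9 was called without diabetic libraries 4 and 5. At the later age 22.9% of all tested genes were called. In the streptozotocin model Flnc, Acta2 and Pdgfrb were higher at the early time, and edgeR called none of the 9 at the late time, where DESeq2 called Tpm2 and Flnc. Without streptozotocin libraries 1, 2 and 3, a choice made after seeing the data, none was called at the early time.

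Smooth muscle and mesangial cells contract through actin filaments, built with smooth muscle actin and tropomyosin, that slide on smooth muscle myosin when its light chain is phosphorylated. Transgelin and calponin bind the actin filaments, filamins cross-link them, and desmin forms the intermediate filaments that tie the apparatus together. Serum response factor (SRF), working with myocardin-related partners, drives many of these genes through an element named the CArG box. In the glomerulus, the capillary tuft that filters blood, mesangial cells hold the loops together and are recruited through the receptor PDGFR-beta. Podocytes, the epithelial cells outside the loops, are not smooth muscle, although desmin staining of podocytes is used as a sign of their injury in rodents.

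The 36 TRAP libraries come from mouse kidney by translating ribosome affinity purification, a pull-down of tagged ribosomes, and 1 further library holds total RNA of whole kidney. The labels name the podocyte as the cell type of the TRAP libraries, and the name of the deposited tables refers to podocin Cre, which acts in podocytes. All mice were C57BL/6. In the type 2 model, eNOS-/- db/db mice (5 libraries at 3 months of age, 3 at 6 months) stood against eNOS-/- mice without db/db (5 at 3 months, 4 at 6 months). The db/db mutation disables the leptin receptor, and eNOS is the endothelial nitric oxide synthase that controls and diabetic mice of this model both lacked. The type 1 model compared mice treated with streptozotocin (STZ), a toxin of pancreatic beta cells, with untreated mice. It had 5 STZ and 4 untreated libraries at 3 weeks (age 3 months), and 5 STZ and 5 untreated libraries at 24 weeks (age 8 months). No eNOS or leptin receptor allele is given for the type 1 mice, and STZ itself and diabetes cannot be told apart. The kidney library came from an eNOS-/- mouse of 3 months without diabetes. Separate animals are not stated for the replicates. The p-values therefore speak of variation from library to library, which may be technical, and libraries carry the replicate numbers of the labels.

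In the table's coordinates, which lie on GRCm38, Acta2 (ENSMUSG00000035783) lies on chromosome 19 from 34241090 to 34255336 and Tagln (ENSMUSG00000032085) on chromosome 9 from 45929628 to 45936058. Tpm2 (ENSMUSG00000028464) spans 43514711 to 43523765 of chromosome 4, and Cnn1 (ENSMUSG00000001349) 22099281 to 22109630 of chromosome 9. Flnc (ENSMUSG00000068699) covers 29433256 to 29461883 of chromosome 6, and Myh11 (ENSMUSG00000018830) 14194527 to 14291408 of chromosome 16. Myl9 (ENSMUSG00000067818) is at 156775420 to 156781658 of chromosome 2 and Des (ENSMUSG00000026208) at 75360329 to 75368579 of chromosome 1. Exons of Tagln share 108 bases (5.43%) with Pcsk7 on the opposite strand, which had 23.7 to 50.3 CPM (counts per 1000000 counts) in TRAP libraries, and 62.4% of its exon bases with the antisense gene Gm48529. Des shares 5.86% of its exon bases with the antisense gene Gm15179, which was at 0 to 0.691 CPM. No source used here states a strand setting for the counting, so reads of these pairs may be shared.

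Because several of these genes are textbook targets of SRF, the 250 bases before each start in the RefSeq promoter table (GRCm38.p6) were searched for the CArG box on both strands. The table held windows for 6 of the 9 genes, Acta2, Tpm2, Cnn1, Flnc, Myl9 and Des. Only Myl9 held a CArG box. Near matches, with 1 G or C among the 6 inner bases, were a pattern added after the strict search; Acta2 held 2, Flnc 1 and Myl9 1, and Des, Tpm2 and Cnn1 had neither form in these windows. Over 32851 windows of the same length, 1.47% held a CArG box and 7.24% a near match. The 5 matches are shown with 10 bases on either side, with the 10 bases of the box in capitals.
Myl9, CArG box, chr2:156775293-156775322, plus strand: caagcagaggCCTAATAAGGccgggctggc
Myl9, near match, chr2:156775355-156775384, plus strand: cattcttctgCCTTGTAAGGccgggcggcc
Acta2, near match, chr19:34255438-34255467, minus strand: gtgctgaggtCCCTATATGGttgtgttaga
Acta2, near match, chr19:34255388-34255417, minus strand: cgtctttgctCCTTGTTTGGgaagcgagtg
Flnc, near match, chr6:29432980-29433009, plus strand: tgtccctcatCCCTAAATGGctaagactag
The boxes began 161 and 99 bases before the start in Myl9, 84 and 34 in Acta2, and 163 in Flnc. Flnc had windows for different starts, and its near match lay in the window from 29432903 to 29433202 of chromosome 6. Its window from 29433006 to 29433305 held neither form. A match describes these letters and does not show whether SRF binds there, which was not measured. In the main edgeR comparisons below, Acta2 and Flnc, with near matches (for Flnc not in every window), and Des, with neither form, were called at least once. Myl9, with the strict match, and Tpm2 and Cnn1, with neither form, were called in none. A link between matches and calls was not tested.

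Total counts ranged from 6702120 to 37786025 per TRAP library, and the kidney library had 28033680. Levels of a gene across libraries are given as CPM, the count divided by the library total and scaled to 1000000. The podocyte gene Nphs1, which encodes nephrin, was at 1126 to 2060.0 CPM in the 3-month eNOS-/- TRAP libraries and 13.9 CPM in kidney. Nos3, the eNOS gene, had 2.08 to 5.08 CPM in the same libraries and 2.63 to 11.9 CPM in untreated type 1 mice at 3 weeks; counts over the whole gene do not resolve a deleted exon and so check no label. Gene-by-gene tests are edgeR quasi-likelihood tests over all genes of a model, and a gene is called when its p-value, adjusted by Benjamini-Hochberg over all genes tested, is under 0.05.

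**Figure D1:**
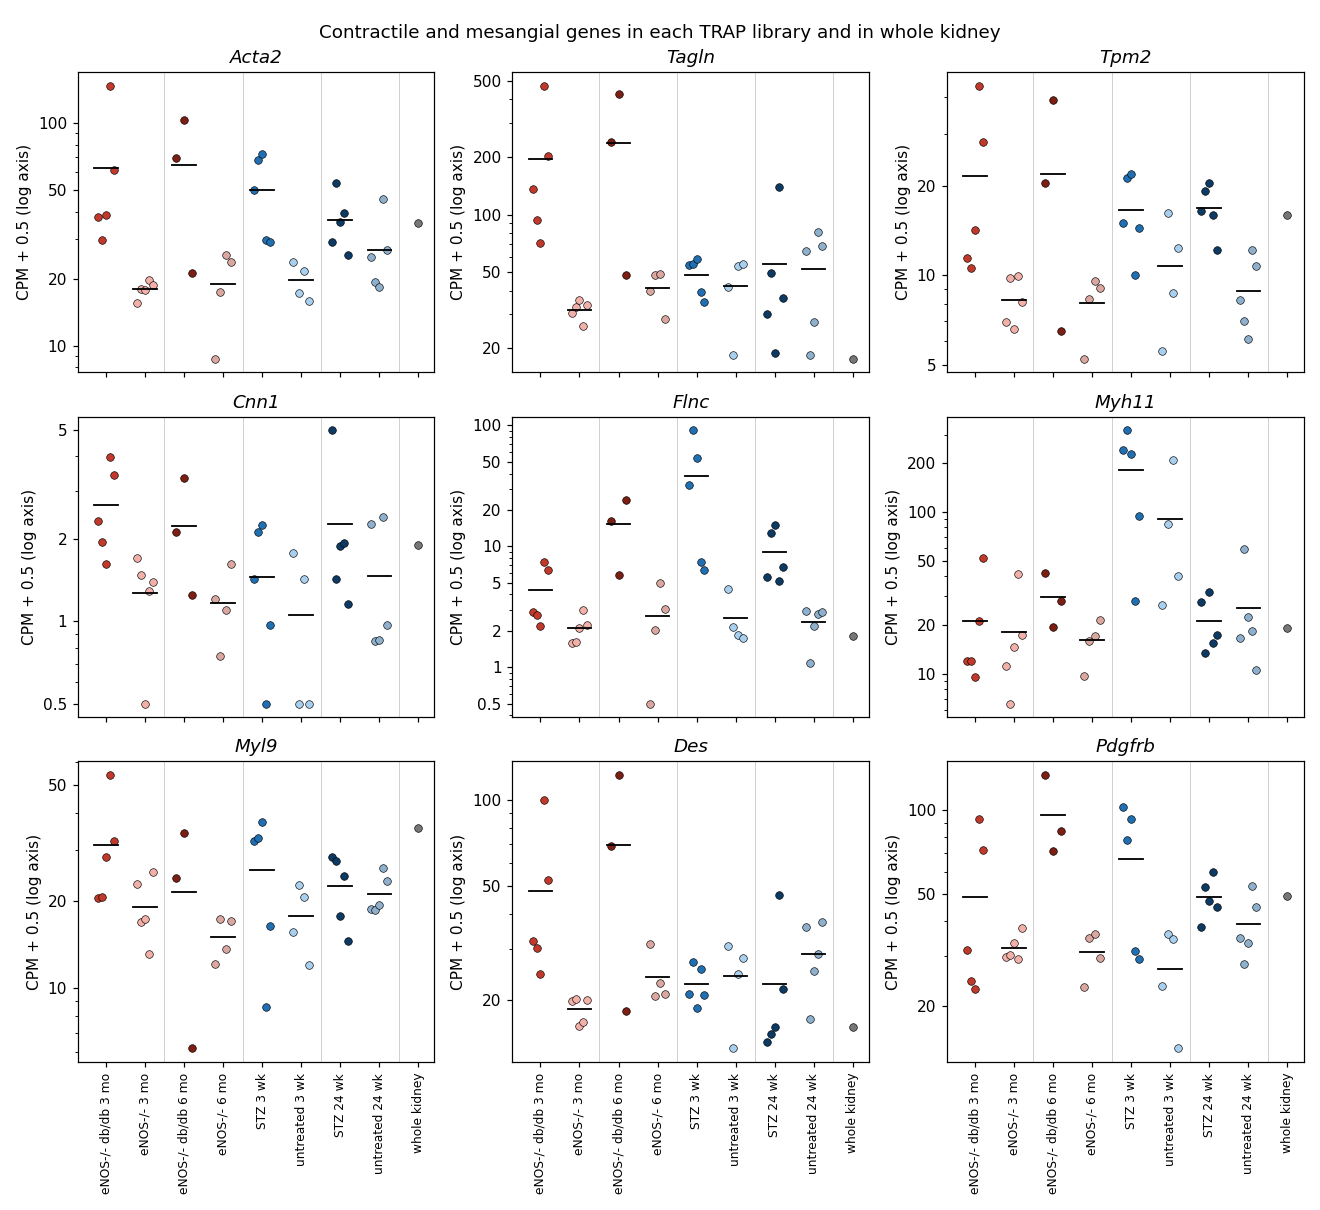
Each panel shows 1 gene, with CPM + 0.5 on a log axis, a point per library, a black bar at the group mean, and diabetic groups left of their controls. Tagln stands highest in db/db libraries, at up to 472 CPM, while Flnc and Myh11 stand highest in STZ libraries at 3 weeks, at up to 90.6 and 318 CPM.

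At 3 months the db/db libraries of the type 2 model had more Tagln and Acta2 RNA than the eNOS-/- controls. The 2 calls of 9, both higher, compare with 2.03% of the 17180 tested genes called higher and 3.99% called in either direction. All 9 fold changes were positive, with a median log2 change of 1.28 against 0.036 for all tested genes. More or fewer cells of a type and more or less RNA per cell cannot be told apart in these libraries.

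Tagln encodes transgelin, a small actin-binding protein of smooth muscle. It was at 136, 93.4, 70.1, 472 and 201 CPM in db/db libraries 1 to 5, against 29.9, 32.5, 35.3, 25.7 and 33.0 CPM in the eNOS-/- controls. Every db/db library lay above every control, and libraries 4 and 5 were the highest. The log2 change was 2.51 (SE 0.52, edgeR adjusted p = 0.0107), the largest of the 9. Acta2, smooth muscle actin, was at 37.4, 29.4, 38.0, 147 and 60.7 CPM in db/db libraries, against 15.1, 17.4, 17.3, 19.2 and 18.3 CPM in controls. The groups did not overlap here either, and the log2 change was 1.71 (SE 0.43, edgeR adjusted p = 0.0315). Acta2 was not called by limma (adjusted p 0.0662 and 0.071 on FPKM + 0.1 and FPKM + 1) or by edgeR without a filter (0.107).

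EdgeR did not call the other thin-filament genes. Tpm2, which encodes a tropomyosin, was at 10.9, 10.04, 13.7, 43.1 and 27.7 CPM in db/db libraries and 6.47, 9.28, 6.08, 9.44 and 7.64 CPM in controls. The groups did not overlap, but the adjusted p was 0.0931 (edgeR, log2 change 1.32, SE 0.42). Tpm2 was called by DESeq2 (adjusted p = 0.0185) and by edgeR with all 36 TRAP libraries (0.036) or only the compared groups (0.0477) in the fit. Cnn1, the smooth muscle calponin, was low, at 1.11 to 3.49 CPM in db/db libraries and 0 to 1.196 CPM in controls (log2 change 1.37, SE 0.67). Flnc, a filamin best known from striated muscle, had 1.69 to 6.94 CPM in db/db libraries and 1.08 to 2.50 CPM in controls (log2 change 1.148, SE 0.65).

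Of the myosin genes, Myh11 encodes the smooth muscle heavy chain and Myl9 a regulatory light chain. Myh11 ranged from 9.08 to 51.3 CPM in db/db libraries and from 6.03 to 40.5 CPM in controls, with a log2 change of 0.16 (SE 0.52) and broad overlap. Myl9 ranged from 19.9 to 53.7 CPM in db/db libraries and from 12.5 to 24.5 CPM in controls (log2 change 0.62, SE 0.34). Neither was called by edgeR.

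Des, which encodes desmin, was at 31.5, 29.9, 24.0, 99.6 and 51.9 CPM in db/db libraries, against 19.3, 19.7, 15.6, 16.2 and 19.5 CPM in controls. The groups did not overlap, yet the adjusted p was 0.0939 (edgeR, log2 change 1.28, SE 0.40). Des was called by DESeq2 (adjusted p = 0.0123) and by edgeR with only the compared groups in the fit (0.0307). Pdgfrb (ENSMUSG00000024620, chromosome 18, 61045150 to 61085061) encodes the PDGF receptor of mesangial cells and pericytes. It was at 31.2, 24.1, 22.4, 91.9 and 71.5 CPM in db/db libraries and 29.5, 29.9, 33.0, 28.9 and 37.5 CPM in controls. Libraries 4 and 5 were far above the controls, and libraries 2 and 3 lay below all of them. Its log2 change of 0.50 (SE 0.32) was not called. In all, 4 of the 9 genes had db/db libraries that were all higher than the controls, as had 4.07% of tested genes.

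In every one of the 9 genes the highest and second-highest db/db values came from libraries 4 and 5. Those libraries also held the most macrophage marker RNA, at a summed 329 and 155 CPM over 10 markers, against 44.1 to 56.7 CPM in db/db libraries 1 to 3 and 58.0 to 79.8 CPM in controls. Their podocyte markers summed to 16388 and 16306 CPM, against 27691 to 30293 CPM in db/db libraries 1 to 3. Mesangial markers other than the 9 genes summed to 146 and 132 CPM in libraries 4 and 5, against 62.7 to 94.1 CPM in libraries 1 to 3. Fibroblast markers summed to 1212 and 477 CPM in libraries 4 and 5, against 236 to 261 CPM in libraries 1 to 3. In controls the mesangial sums were 63.03 to 81.0 CPM and the fibroblast sums 267 to 557 CPM. The part of these cells in the result was not tested. Without libraries 4 and 5, no member was called: Tagln had a log2 change of 1.60 (edgeR adjusted p = 0.0901) and Acta2 0.92 (0.241), while Pdgfrb and Myh11 turned negative, at -0.37 and -0.83. The remaining db/db libraries still had 70.1 to 136 CPM of Tagln, above all controls.

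Leaving out single libraries, Tagln stayed called in 10 of 10 fits (adjusted p 0.00446 to 0.0368). Acta2 lost its call in 7 of 10, with adjusted p up to 0.0923, when any control or db/db library 4 or 5 was left out.

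At 6 months 5 of the 9 genes were higher in db/db libraries: Tagln, Acta2, Flnc, Des and Pdgfrb. Here 11.2% of the tested genes were called higher and 22.9% in either direction, so the background of calls was much denser than at 3 months. The median log2 change of the 9 was 1.35, against -0.0096 for all tested genes, and all 9 changes were positive. The groups did not overlap for 2 genes, Pdgfrb and Flnc, all db/db libraries being higher, and this held for 20.5% of tested genes.

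Pdgfrb was at 132, 70.8 and 83.7 CPM in db/db libraries, against 22.8, 34.4, 35.6 and 29.2 CPM in eNOS-/- controls. Every db/db library was above every control, and the log2 change was 1.42 (SE 0.38, edgeR adjusted p = 0.0141). Flnc was at 15.7, 5.33 and 23.7 CPM in db/db libraries, against 0, 1.54, 4.49 and 2.54 CPM in controls (log2 change 2.54, SE 0.77, edgeR adjusted p = 0.0253). Control library 1 had no Flnc read, so the fitted change depends in part on the prior count. EdgeR did not call Flnc without a filter (adjusted p = 0.0594) or with only the compared groups in the fit (0.0784).

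Tagln was at 238, 425 and 48.0 CPM in db/db libraries and 39.3, 47.5, 48.5 and 27.8 CPM in controls. Libraries 1 and 2 were far above the controls and library 3 was within their range; the log2 change was 2.33 (SE 0.60, edgeR adjusted p = 0.0128). Acta2 followed the same order, at 68.9, 102 and 20.7 CPM in db/db libraries and 8.22, 16.9, 24.9 and 23.2 CPM in controls (log2 change 1.61, SE 0.50, edgeR adjusted p = 0.0306). Without a filter edgeR did not call Acta2 (adjusted p = 0.0909). Des was at 68.3, 122 and 17.8 CPM in db/db libraries and 30.9, 20.2, 22.4 and 20.5 CPM in controls, so that library 3 lay below every control. Its adjusted p of 0.0498 (edgeR, log2 change 1.35, SE 0.48) was just under the threshold, and limma did not call it (adjusted p 0.0887 and 0.0865 on FPKM + 0.1 and FPKM + 1). EdgeR did not call Des without a filter (adjusted p = 0.132) or with only the compared groups in the fit (0.087).

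Tpm2 (19.9, 38.3 and 5.97 CPM in db/db libraries, 4.73 to 9.08 CPM in controls) had a log2 change of 1.31 and an adjusted p of 0.0644 (edgeR), and was called by DESeq2 (0.0271) and by edgeR with all 36 TRAP libraries in the fit (0.0327). Myl9 was at 23.4, 33.6 and 5.67 CPM in db/db libraries and 11.5 to 16.8 CPM in controls, with library 3 again below all controls (log2 change 0.34, SE 0.41). Cnn1 had 0.746 to 2.84 CPM in db/db libraries and 0.248 to 1.12 CPM in controls. Myh11 had 18.8 to 41.4 CPM in db/db libraries and 9.22 to 21.0 CPM in controls (log2 change 0.69, SE 0.62). None of these 4 genes was called by edgeR on the type 2 libraries.

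Library 3 thus split the 9 genes: it was the lowest db/db library for Tagln, Acta2, Des, Tpm2, Myl9 and Cnn1, the highest for Flnc, and between the others for Pdgfrb and Myh11. It had the lowest total of all libraries, 6702120 counts, and the lowest summed podocyte markers, 3824 CPM against 10124 and 16674 CPM in db/db libraries 1 and 2. Without it Tagln had a log2 change of 2.82 (edgeR adjusted p = 0.00528), Acta2 2.03, Des 1.81 and Pdgfrb 1.53, all called, while Flnc had 2.09 (adjusted p = 0.114) and was not, and Tpm2 was called as well. Des lost its call in 6 of 7 fits that left out 1 library, all except the one without library 3. Acta2 lost its call in 4 of 7 (without control 1 or 2 or db/db library 1 or 2), and Flnc in 4 (without control 2 or 4 or db/db library 1 or 3). Tagln lost its call without db/db library 2 (edgeR log2 change 1.58, adjusted p = 0.0694) and Pdgfrb without db/db library 1 (edgeR adjusted p = 0.0756). The number of the 9 genes called ran from 1 to 5 over these fits.

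**Figure D2:**
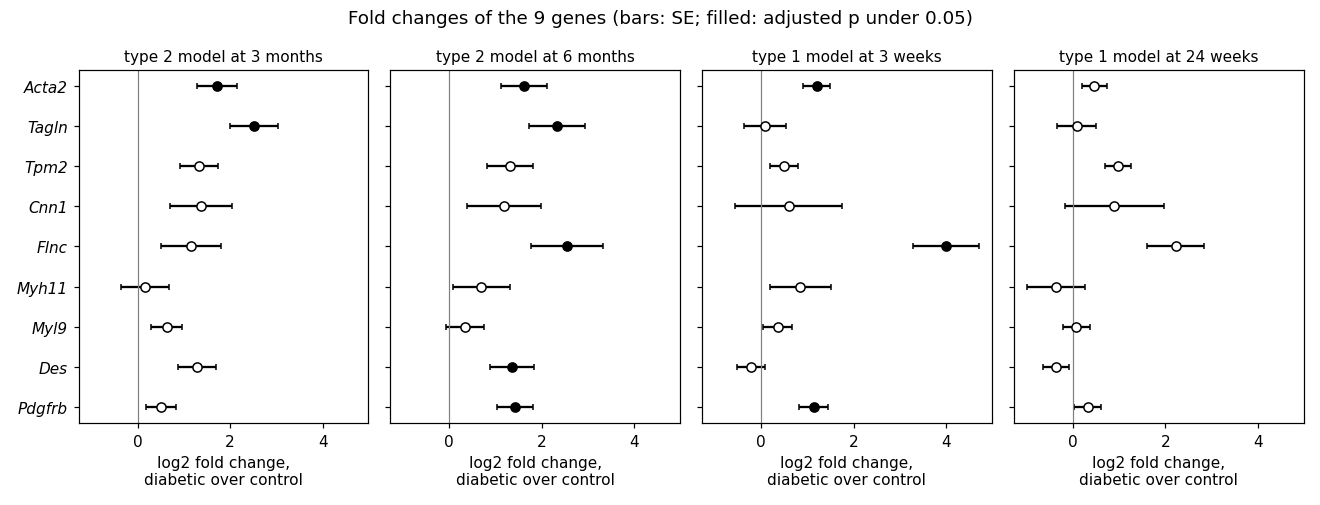
Log2 fold changes of the 9 genes, diabetic over control, in 4 panels for the 2 models and 2 times, with bars for the standard error and filled points for an adjusted p under 0.05. Filled points number 2, 5, 3 and 0 from left to right, and Tagln lies at 2.51 and 2.33 in the type 2 model and at 0.080 and 0.083 in the type 1 model.

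After 3 weeks of STZ, Flnc, Acta2 and Pdgfrb were higher than in untreated mice. These 3 of 9 genes compare with 3.78% of the 16279 tested genes called higher and 6.5% called in either direction. The median log2 change of the 9 was 0.60, against 0.0024 for all tested genes. Flnc and Acta2 did not overlap between the groups, being higher in every STZ library, as were 5.07% of tested genes.

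Flnc was at 31.4, 90.6, 53.1, 6.92 and 5.90 CPM in STZ libraries, against 3.91, 1.66, 1.36 and 1.26 CPM in untreated mice. STZ libraries 1 to 3 stood far above libraries 4 and 5, which were themselves above the untreated range. The log2 change was 3.99 (SE 0.71, edgeR adjusted p = 0.00192), the largest change of any member in the study. Acta2 was at 49.3, 67.7, 71.7, 29.2 and 28.7 CPM in STZ libraries and 23.2, 16.8, 21.2 and 15.4 CPM in untreated mice, with the same 3 libraries highest (log2 change 1.2, SE 0.28, edgeR adjusted p = 0.0125). Pdgfrb was at 102, 77.7, 92.0, 31.0 and 28.9 CPM in STZ libraries and 23.0, 35.6, 34.0 and 13.6 CPM in untreated mice. Libraries 4 and 5 were inside the untreated range, and the log2 change was 1.14 (SE 0.32, edgeR adjusted p = 0.0331).

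Tagln and Des, both called at 6 months in the type 2 model, were not called here. Tagln was at 54.2, 54.4, 58.2, 38.7 and 34.5 CPM in STZ libraries and 41.2, 17.8, 53.3 and 54.3 CPM in untreated mice (log2 change 0.080, 95% interval -0.88 to 1.04). Des was at 18.3 to 26.5 CPM in STZ libraries and 13.0 to 30.2 CPM in untreated mice (log2 change -0.21, 95% interval -0.83 to 0.40). Tpm2 had 9.52 to 21.4 CPM in STZ libraries and 5.05 to 15.7 CPM in untreated mice, and Myl9 8.08 to 36.9 CPM against 11.5 to 22.2 CPM. Cnn1 was at 0 in STZ library 4 and in untreated libraries 2 and 4. Myh11 was at 239.7, 318, 226, 27.7 and 94.2 CPM in STZ libraries and 25.99, 83.9, 209 and 39.8 CPM in untreated mice, so that both groups held libraries far apart. Its log2 change of 0.85 (SE 0.66) was not called.

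STZ libraries 1 to 3 differed from libraries 4 and 5 in other measures too. Their podocyte markers summed to 11253 to 12528 CPM, against 21837 and 20304 CPM in libraries 4 and 5 and 11026 to 25602 CPM in untreated mice. They had 19712 to 21050 genes with a read, against 14320 and 18044 in STZ libraries 4 and 5 and 15558 to 16362 in untreated mice. Their macrophage markers summed to 219.6 to 319 CPM, against 89.3 and 107 CPM in libraries 4 and 5 and 47.2 to 97.7 CPM in untreated mice. Endothelial markers summed to 698 to 748 CPM in libraries 1 to 3, 272 and 305 CPM in libraries 4 and 5, and 242 to 545 CPM in untreated mice. Mesangial markers other than the 9 genes summed to 118.5 to 152 CPM in libraries 1 to 3. Those mesangial sums were 74.4 and 80.2 CPM in libraries 4 and 5 and 56.1 to 107.8 CPM in untreated mice. Parietal epithelium markers summed to 347 to 402 CPM in libraries 1 to 3, 271 and 241 CPM in libraries 4 and 5. In untreated mice the parietal sums were 174 to 224 CPM. The part of these differences in the result was not tested. Without libraries 1, 2 and 3, a choice made after seeing the data, none of the 9 genes was called: Flnc had a log2 change of 1.64 (edgeR adjusted p = 0.27), Acta2 0.60 (0.437) and Pdgfrb 0.17 (0.864). Leaving out single libraries, Flnc and Acta2 stayed called in 9 of 9 fits, and Pdgfrb lost its call in 5 (adjusted p up to 0.0953), without STZ library 1, 2 or 3 or untreated library 1 or 4. Pdgfrb was also not called by edgeR without a filter (adjusted p = 0.0657) or with only the compared groups in the fit (0.142), nor Acta2 with all 36 TRAP libraries in the fit (0.0536).

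After 24 weeks of STZ none of the 9 genes was called by edgeR, where 0.448% of tested genes were called higher and 0.897% in either direction. At an unadjusted p under 0.05 there were 2 of 9, against 10.7% of tested genes: Tpm2 and Flnc, which DESeq2 also called, and limma on FPKM called none. EdgeR called Flnc with only the compared groups in the fit (adjusted p = 0.0218). The median log2 change was 0.33, against -0.013 for all tested genes, and 7 of the 9 changes were positive.

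Flnc was at 5.04, 12.3, 14.4, 4.64 and 6.19 CPM in STZ libraries, against 2.40, 0.578, 1.70, 2.24 and 2.35 CPM in untreated mice. Every STZ library was above every untreated one, which held in this direction for 1.76% of tested genes, and the log2 change was 2.22 (SE 0.61, edgeR adjusted p = 0.0957). Tpm2 was at 16.0, 18.7, 19.97, 15.4 and 11.6 CPM in STZ libraries and 7.72, 6.53, 5.59, 11.7 and 10.2 CPM in untreated mice, with overlap between the lowest STZ and the highest untreated library. Its log2 change was 0.97 (SE 0.28, edgeR adjusted p = 0.11).

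Tagln had one STZ library apart from the rest, number 4, in 29.8, 48.9, 18.3, 139 and 36.01 CPM, against 64.1, 17.98, 26.9, 80.8 and 68.3 CPM in untreated mice (log2 change 0.083, SE 0.43). The same library was highest for Des, at 46.1 CPM against 13.7 to 21.3 CPM in the other STZ libraries and 16.7 to 36.8 CPM in untreated mice. Its fibroblast markers summed to 608.5 CPM, against 183 to 325.5 CPM in the other STZ libraries and 211 to 602 CPM in untreated mice. Its podocyte markers were also the highest of the STZ group, at 25863 CPM against 5668 to 23427 CPM in the others. In untreated mice the podocyte sums were 10297 to 27487 CPM. The part of these cells in the Tagln and Des values was not tested. Acta2 had 25.0 to 53.3 CPM in STZ libraries and 17.8 to 45.0 CPM in untreated mice (log2 change 0.47, SE 0.26), and Pdgfrb 37.8 to 59.7 CPM against 27.6 to 53.0 CPM (0.33, SE 0.29). Myh11 was at 12.9 to 31.6 CPM in STZ libraries and 10.04 to 58.2 CPM in untreated mice, Myl9 at 14.0 to 27.7 CPM against 18.04 to 25.3 CPM, and Cnn1 at 0.658 to 4.48 CPM against 0.347 to 1.90 CPM.

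Whether the models or times differed was tested as the difference of the diabetic effects, and edgeR called none of the 9 genes in any of these 4 tests. For the early effects, type 2 at 3 months minus type 1 at 3 weeks, 0.94% of 18511 genes were called. Tagln had a difference of 2.44 on the log2 scale (SE 0.75, edgeR adjusted p = 0.113), Des 1.49 (SE 0.54, adjusted p = 0.19) and Flnc -2.86 (SE 0.97, adjusted p = 0.159). These 3 of 9 had an unadjusted p under 0.05, as had 14% of genes, and DESeq2 called 1 of them, Tagln (adjusted p = 0.0304), while limma called none. For the late effects, 6 months minus 24 weeks, 0.438% of genes were called. Tagln had a difference of 2.24 (SE 0.80, edgeR adjusted p = 0.17), Des 1.71 (SE 0.58, adjusted p = 0.144) and Pdgfrb 1.09 (SE 0.51, adjusted p = 0.30), the 3 with an unadjusted p under 0.05 where 15.1% of genes had one. DESeq2 called Des (adjusted p = 0.0421) and limma none. Ages and durations differ in the late pair. The unadjusted 95% interval of the Tagln difference was 0.91 to 3.96 early and 0.61 to 3.87 late.

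Between 3 and 6 months in the type 2 model the diabetic effect was not called as different for any of the 9 genes, and none was by DESeq2 or limma. Of the 17180 genes, 0% were called, and 0 of the 9 had an unadjusted p under 0.05, against 18.9% of genes. That 0% hung on single libraries. Up to 1911 genes were called without db/db library 4 at 3 months, or library 2 or 3 at 6 months. In the 17 fits that left out 1 library, 0 of the 9 genes were called. Flnc had the largest estimate, 1.39 (95% interval -0.69 to 3.48), followed by Pdgfrb with 0.92 (95% interval -0.12 to 1.96). Between 3 and 24 weeks of STZ the effect was likewise not called as different for any member (0% of 16279 genes called, none of the 9 by DESeq2 or limma, 0 of 9 against 6.71% of genes at an unadjusted p under 0.05). Flnc had -1.77 (95% interval -3.60 to 0.059), Pdgfrb -0.81 and Acta2 -0.73.

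Age alone moved none of the 9 genes past the threshold in controls. In eNOS-/- controls at 6 against 3 months edgeR called 0% of genes, with 0 of the 9 against 3.14% of genes at an unadjusted p under 0.05, and neither DESeq2 nor limma called a member. Des was at 30.9, 20.2, 22.4 and 20.5 CPM at 6 months against 15.6 to 19.7 CPM at 3 months without overlap, as were 0.873% of genes in that direction (log2 change 0.46, SE 0.42). In untreated mice 3.7% of genes were called between the 24-week and 3-week groups. Myh11 had a log2 change of -1.84 (SE 0.66, edgeR adjusted p = 0.128), at 16.2, 58.2, 21.7, 17.8 and 10.04 CPM in the 24-week group and 25.99, 83.9, 209 and 39.8 CPM in the 3-week group. It was the 1 gene of 9 with an unadjusted p under 0.05, where 17.5% of genes had one; none was called by DESeq2 or limma, and 1 of the 9 genes was called when untreated 24-week library 2 was left out.

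Levels of different genes are compared per length, in FPKM (counts per kilobase of gene, scaled to the same total). In the eNOS-/- TRAP libraries at 3 months Tagln stood at 19.7 ± 2.30 FPKM, Myl9 at 15.9 ± 4.19 and Acta2 at 9.79 ± 0.857 (SD, n = 5 each). Pdgfrb followed at 5.79 ± 0.655 FPKM, Des at 4.81 ± 0.527, Tpm2 at 2.67 ± 0.534 and Myh11 at 2.66 ± 2.02 FPKM (SD, n = 5 each). Cnn1, at 0.325 ± 0.192 FPKM, and Flnc, at 0.171 ± 0.0615 FPKM, closed the order. Libraries overlapped between the neighbours Tagln and Myl9, Tpm2 and Myh11, and Cnn1 and Flnc, and not between the other neighbours. In db/db libraries of the same age Tagln was again first, at 122.7 ± 103 FPKM, and Acta2, at 35.1 ± 27.3 FPKM, stood above Myl9, at 26.4 ± 11.9 FPKM, though all neighbours overlapped. In STZ libraries at 3 weeks Tagln (30.3 ± 6.70 FPKM), Acta2 (27.7 ± 11.5) and Myh11 (27.3 ± 17.7) overlapped at the top, and Flnc, at 4.00 ± 3.77 FPKM, was next to last.

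In whole kidney the order was another. Myl9 led at 30.2 FPKM, before Acta2 at 19.6, Tagln at 10.8 and Pdgfrb at 8.91 FPKM. TRAP libraries of eNOS-/- mice at 3 months had a median ratio to the kidney library of 0.671 over the 9 genes, on CPM + 0.5, against 0.981 over 20345 genes. Ratios were above 1 for 3 of the 9 genes, as for 48.1% of those genes. Tagln averaged 31.3 ± 3.64 CPM in TRAP libraries (SD, n = 5) and 17.1 CPM in kidney (exact 95% Poisson interval 15.6 to 18.7), a ratio of 1.81. Acta2 averaged 17.4 ± 1.53 CPM in TRAP libraries and 35.0 CPM in kidney (32.8 to 37.3), a ratio of 0.505. Ratios were 1.158 for Des, 1.157 for Flnc, 0.954 for Myh11, 0.671 for Cnn1, 0.653 for Pdgfrb, 0.533 for Myl9 and 0.518 for Tpm2. For Myh11 and Flnc the kidney value fell between the lowest and highest of the 5 TRAP libraries, and for the other 7 genes it did not. By comparison, the summed podocyte markers were 23413 to 38522 CPM in these TRAP libraries and 420.4 CPM in kidney. Markers of other cells were also present: interstitial fibroblast markers summed to 267 to 557 CPM in TRAP libraries and 159 CPM in kidney, and the following sets were lower in TRAP libraries. Proximal tubule markers summed to 8691 to 12616 CPM in TRAP libraries and 25957 CPM in kidney, and endothelial markers to 287 to 368 CPM and 589 CPM. Macrophage markers summed to 58.0 to 79.8 CPM in TRAP libraries and 125 CPM in kidney, and mesangial markers other than the 9 genes to 63.03 to 81.0 CPM and 139.7 CPM. There was 1 kidney library, labelled total RNA where the TRAP libraries are labelled polyA RNA, so no test was made, and the intervals cover counting error only.

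Across the 36 TRAP libraries the 9 genes did not form one block. As a description of libraries that share groups and preparation, the log2 CPM of Acta2 had the highest Pearson r with the mean of the other 8 genes, 0.928, and Myh11 the lowest, 0.229. With group means subtracted the values were 0.878 and 0.314. Among pairs of genes after that subtraction, Tagln and Des were closest, with r = 0.866, followed by Acta2 and Tpm2 with 0.791 and Acta2 and Myl9 with 0.751. Flnc had 0.063 with Tagln and -0.12 with Des, but 0.585 with Pdgfrb and 0.515 with Acta2. Single libraries show the split: library 3 of the 6-month db/db group had the lowest Tagln and Des of its group and the highest Flnc, and STZ library 4 at 24 weeks had the highest Tagln and Des and the lowest Flnc of its group.

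**Figure D3:**
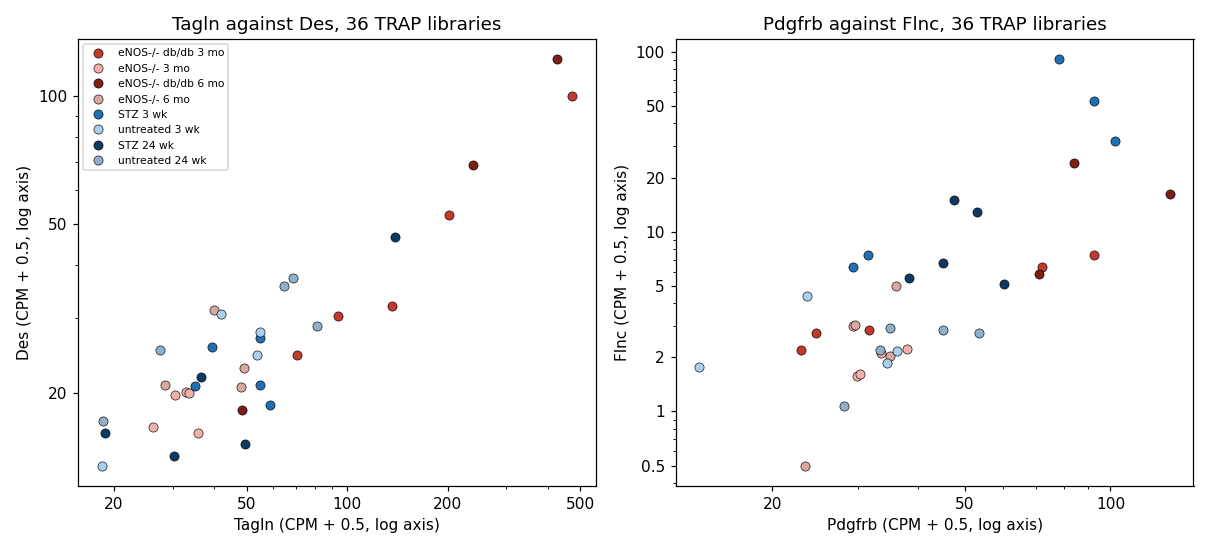
Tagln against Des (left) and Pdgfrb against Flnc (right) in 36 TRAP libraries, both axes CPM + 0.5 on a log scale, colours by group. Tagln and Des both reach their highest values, 472 and 122 CPM, in db/db libraries, while the highest Flnc values, up to 90.6 CPM, belong to STZ libraries at 3 weeks with 77.7 to 102 CPM of Pdgfrb.

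Of 10965 other genes with a mean of at least 5 CPM, those most like the mean of the 9 over the 36 libraries were Fn1, fibronectin of the matrix (Pearson r 0.847), Mgp, matrix Gla protein (0.821), and Gucy1a3, a subunit of the soluble guanylate cyclase (0.803). Clca3a1, Flna, Col8a1, Sorbs2 and Tnc followed, at 0.799 to 0.788. With group means subtracted, Loxl1, a lysyl oxidase-like enzyme (0.837), Mgp (0.821) and the filamin Flna (0.804) led, then Frzb, C1qa, Ifitm3 and Plekho2 at 0.795 to 0.777. C1qa is a complement gene of macrophages. The libraries share depth, groups and preparation, and these values are a description.

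Other genes of contraction and its regulation were taken from a list of 20 that holds none of the 9. At 3 months in the type 2 model 5 of 20 were called, all higher in db/db libraries, where 2.03% of all tested genes were called higher, with a list median of 0.68 on the log2 scale. Tagln2, a relative of transgelin found in many cell types, was at 330.5, 234, 237, 413 and 231 CPM in db/db libraries and 102, 107, 98.6, 75.6 and 79.3 CPM in controls, with no overlap (log2 change 1.54, edgeR adjusted p = 3.09e-05). Unlike Tagln and Acta2 it was also called without db/db libraries 4 and 5 (1.45, edgeR adjusted p = 0.000171). Csrp1, a LIM protein of smooth muscle, was at 281 to 605 CPM in db/db libraries and 98.2 to 140.3 CPM in controls (log2 change 1.64, edgeR adjusted p = 0.00718). Pdlim7 (1.87), an actin-associated scaffold, and Cnn2 (0.98), a calponin of many cell types, were also called; Csrp1 and Cnn2 were not without db/db libraries 4 and 5.

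At 6 months 4 of the 20 were higher and 1 lower in db/db libraries (list median 0.72), a share near the 22.9% of all tested genes called in either direction. Tagln2 (1.40, edgeR adjusted p = 0.000304), Pdlim7 (1.79) and Synm (1.21), an intermediate filament protein that binds desmin, were among those higher; Synm lost its call in 3 of 7 fits without 1 library (control 1 or db/db library 1 or 3). Mylk, the kinase that phosphorylates myosin light chain, was lower, at 786, 1142 and 353 CPM in db/db libraries and 1513 to 1671 CPM in controls, without overlap (log2 change -1.26, edgeR adjusted p = 0.00579). Mylk was more abundant in TRAP libraries of controls, at 1583 to 2276 CPM at 3 months, than in kidney, at 189 CPM. In the type 1 model edgeR called 0 of 19 tested at either time. At an unadjusted p under 0.05 there were 4 at 3 weeks, where the share of all tested genes is not reported here. There were 2 at 24 weeks, a share near the 10.7% of all tested genes. DESeq2 called 2 at 3 weeks and 0 at 24 weeks, and limma none.

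The list of PDGF family and mesangial or pericyte genes, 15 tested of 16, gave 2 called at 3 months and 7 at 6 months in the type 2 model, all higher, against 2.03% and 11.2% of all tested genes called higher. It gave 2 at 3 weeks of STZ, also higher (3.78% of tested genes), and 0 at 24 weeks. At 24 weeks 4 had an unadjusted p under 0.05, as had 10.7% of tested genes, and neither DESeq2 nor limma called one. Pdgfa, a ligand that acts on PDGFR-alpha and is not the main ligand of PDGFR-beta, was at 29.5, 31.4, 25.4, 45.3 and 34.1 CPM in 3-month db/db libraries and 9.60 to 11.1 CPM in controls (log2 change 1.56, edgeR adjusted p = 2.3e-05). It was also called without db/db libraries 4 and 5 (1.37, edgeR adjusted p = 0.000262). At 6 months Pdgfa was at 48.0, 46.5 and 34.2 CPM in db/db libraries and 9.63 to 16.2 CPM in controls (1.47, edgeR adjusted p = 0.000177). Notch3, a receptor of mural cells, was at 89.8, 39.0 and 96.5 CPM in 6-month db/db libraries and 15.4 to 20.9 CPM in controls (1.82, edgeR adjusted p = 0.00716). Gata3 (1.41), a transcription factor of mesangial cells, and Cspg4 (1.28), a proteoglycan of pericytes, were called as well. Serpine2, a protease inhibitor, was called at 3 months (1.53, though not without db/db libraries 4 and 5) and at 3 weeks of STZ (1.49, edgeR adjusted p = 0.0066), where Cspg4 had 0.85 (adjusted p = 0.0372). Neither was called at 3 weeks without STZ libraries 1, 2 and 3.

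Among 10 genes of SRF and its partners and immediate targets, 1 was called at 3 months, Ankrd1 (log2 change 1.40, edgeR adjusted p = 0.00968), a stretch-responsive nuclear protein, which was not called without db/db libraries 4 and 5. Of all tested genes, 2.03% were called higher at 3 months and 3.99% in either direction. At 6 months 2 were called, Fhl2 (1.499), a LIM-only cofactor, and Mkl2 (0.72), a myocardin-related partner of SRF, a share near the 22.9% of all tested genes called. After 3 weeks of STZ Fhl2 was called (1.71, edgeR adjusted p = 0.011), at 5.55 to 11.9 CPM in STZ libraries and 1.46 to 2.96 CPM in untreated mice, though not without STZ libraries 1, 2 and 3. It was the 1 call of 10 there, where 3.78% of all tested genes were called higher and 6.5% in either direction. At 24 weeks edgeR called 0 of 10, with 1 at an unadjusted p under 0.05 (10.7% of tested genes) and none by DESeq2 or limma. All the genes named in these 3 lists as called were higher in the diabetic libraries except Mylk.

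Markers of the cells that carry these genes, and of others, differed among the same libraries. Mesangial markers other than the 9 genes, 7 in all, also belong to the list of PDGF family and mesangial or pericyte genes above. Their calls are therefore counted in that list too. They summed to 62.7 to 146 CPM in 3-month db/db libraries and 63.03 to 81.0 CPM in controls. At 6 months they summed to 125 to 195 CPM in db/db libraries and 46.0 to 71.6 CPM in controls. Gata3 alone had 91.2 CPM in 6-month db/db library 3, where the sum was 195 CPM. Of the 6 markers tested, 1 was called higher at 3 months and 3 at 6 months, where 2.03% and 11.2% of all tested genes were called higher. In the type 1 model they summed to 74.4 to 152 CPM in STZ libraries and 56.1 to 107.8 CPM in untreated mice at 3 weeks. There 1 of 6 was called higher, as were 3.78% of all tested genes. At 24 weeks the sums were 102 to 134 CPM against 77.1 to 117 CPM, and edgeR called 0 of 6. An unadjusted p under 0.05 was found for 2 of them, and for 10.7% of tested genes. Tbx18, one of these markers, was at 0 in all libraries of both 24-week groups.

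Macrophage markers gave 6 of 10 called at 6 months and 5 at 3 weeks, all higher, and 0 by edgeR at 3 months and 24 weeks, where 6 and 3 had an unadjusted p under 0.05. Of all tested genes 11.2% were called higher at 6 months and 3.78% at 3 weeks, and 22.9% and 6.5% in either direction, the background of the other marker counts too. At 24 weeks 10.7% of tested genes had an unadjusted p under 0.05. For 3 months and 3 weeks that share is not reported here, so the unadjusted counts there lack a background. Their sums at 6 months were 180.1 to 339 CPM in db/db libraries and 66.8 to 112 CPM in controls. Fibroblast markers, 6 in all, gave 0 called by edgeR at 3 months, with 4 at an unadjusted p under 0.05, and 2 at 6 months, and summed to 518 to 1072 CPM in 6-month db/db libraries and 239.8 to 469.7 CPM in controls. At 3 weeks of STZ 2 of the 5 fibroblast markers tested were called higher. The 3-week fibroblast sums were 207 to 403 CPM in STZ libraries and 272 to 407 CPM in untreated mice. All 10 podocyte markers were lower at 6 months, with sums of 3824 to 16674 CPM in db/db libraries and 24900.3 to 29448 CPM in controls. At 3 months none was called by edgeR, and 3 had an unadjusted p under 0.05. Parietal epithelium markers gave 5 of 8 called higher at 6 months, with sums of 329 to 661 CPM in db/db libraries and 156 to 239 CPM in controls, and 2 of 8 at 3 weeks. At 3 months they summed to 461 and 303 CPM in db/db libraries 4 and 5, 165 to 255 CPM in db/db libraries 1 to 3 and 193 to 233 CPM in controls. EdgeR called 1 of the 8 higher there, where 2.03% of all tested genes were called higher. Renin cell markers summed to 28.6 to 53.8 CPM in STZ libraries at 3 weeks and 15.7 to 28.3 CPM in untreated mice, without overlap, and edgeR called 0 of 2, with 1 at an unadjusted p under 0.05. At 6 months 1 of the 2 renin cell markers was called lower in db/db libraries. Proximal tubule markers were lower in 6 of 10 cases at 6 months and at 3 weeks. EdgeR also called 2 of 10 lower at 3 months, where 3.99% of all tested genes were called in either direction. It called 1 of 10 lower at 24 weeks, where 0.897% of all tested genes were called in either direction. Markers of striated muscle, the usual site of Flnc, summed to 8.15 CPM at most in any TRAP library, and Actc1, Tnnt3 and Myh4 were at 0 in all eNOS-/- controls. The part of mesangial, macrophage, fibroblast, parietal, renin cell and podocyte content in the changes of the 9 genes was not tested.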

How the data were processed

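TRAP libraries of 8 groups (36 in all) and 1 whole-kidney library were analysed from 2 deposited tables. The deposited counts are whole numbers per gene, made, per the submitters' processing notes, with cutadapt 1.16, STAR, FastQC and featureCounts 1.15.2. Those notes name mm9, whereas the table's coordinates lie on GRCm38 (5 of the 9 genes had the same start and end as its annotation). The deposited FPKM values equalled the count per kilobase and library total within 0.001 in 100% of cases, so that the authors' FPKM hold no other normalization. No value column lacked a sample (0).

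Genes were tested with edgeR 4.0.16 (TMM, filterByExpr, robust quasi-likelihood) in R 4.3.3, on 17 type 2 libraries, 19 type 1 libraries, or all 36 for differences between models, with Benjamini-Hochberg adjustment and a threshold of 0.05. CPM are counts scaled by the library total. Exact Poisson intervals at 95% cover counting error only. The 9 genes are always named; from each wider list up to 4 called genes of lowest p are named per comparison, and 8 genes per scale for likeness (log2 CPM, prior count 3, mean of at least 5 CPM), of which 1 is not reported here. The genes and lists were chosen with earlier results of these data known. On simulated counts with 100 changed genes per fold size, the type 2 test at 3 months recovered 96% at an absolute log2 change of 2 and 72% at 1 (16718 genes), at 6 months 93% and 48%, and the type 1 test 90% and 49% at 3 weeks and 96% and 62% at 24 weeks. The changed genes were drawn from those with higher counts, which leaves out genes as low as Cnn1. Each simulated gene took the spread of the trend over all genes, without libraries set apart. Recovery for the 9 genes may therefore be lower.

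Alternatives were DESeq2 1.42.0, limma 3.58.1 on log2 FPKM + 0.1 or + 1, RLE or upper-quartile size factors, a stricter filter or none, a replicate block, fits on the compared groups alone or on all 36 libraries, and leaving out libraries. Leaving out STZ 3-week libraries 1, 2 and 3 was chosen after seeing the data. No pair of libraries agreed within sampling noise (lowest chi-square per degree of freedom 13.96). No batch is given in the labels.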

Additional observations from a re-analysis of the deposited data

Results flagged for a closer look

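Over 63 combinations of a gene and a group of 4 or more libraries, 2 had a library far from the rest by Dixon's criterion, which flags about 1 in 20 groups by chance. Cnn1 was at 0 CPM in library 3 of the eNOS-/- controls at 3 months, against 0.793 to 1.196 CPM in the other libraries of that group. Flnc was at 0.578 CPM in untreated 24-week library 2, against 1.7 to 2.4 CPM in the others.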

How the results depend on the processing

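The number of the 9 genes called at 3 months in the type 2 model, 2, became 4 with DESeq2 and with only the compared groups in the fit, 1 without a filter and with limma on FPKM + 0.1 or FPKM + 1, and 0 with the replicate block or without db/db libraries 4 and 5, where Myh11 (-0.83) and Pdgfrb (-0.37) reversed. Leaving out single libraries gave 1 to 3. At 6 months the 5 became 2 without a filter and 3 with only the compared groups, 6 with DESeq2, 4 with either limma fit (Des lost), and 1 to 5 without single libraries. At 3 weeks of STZ Pdgfrb lost its call without a filter and with only the compared groups, and Acta2 with all 36 libraries; the 3 became 0 without STZ libraries 1, 2 and 3, where Tagln (-0.16), Myh11 (-0.54), Cnn1 (-1.25) and Myl9 (-0.53) reversed. At 24 weeks the 0 became 2 with DESeq2 and 1 with only the compared groups. The early and late differences between models, 0 each, became 1 each with DESeq2, and the difference between 6 and 3 months became 1 without db/db 3-month libraries 4 and 5. Ageing in untreated mice gave 0 to 1 without single libraries. The median ratio to kidney, 0.671, was 0.858 with CPM + 3 and 0.656 to 0.773 without single libraries. Tagln at 24 weeks reversed with limma (-0.072 and -0.069) and with the replicate block (-0.0020). Without single libraries, log2 changes that reversed ranged from -0.57 to 0.76 (Myh11, 3 months), -0.18 to 0.78 (Myl9, 6 months), -0.14 to 0.24 (Tagln, 3 weeks), and at 24 weeks -0.59 to 0.30 (Tagln), -0.58 to 0.36 (Myh11) and -0.026 to 0.22 (Myl9). The cause of these changes was not tested. Same-numbered libraries shared only a number (17 pairs, r -0.101 to 0.205, 4 above 0.1, 5 best with their own number); the replicate block gave 0, 5, 3 and 0 called at 3 months, 6 months, 3 weeks and 24 weeks. Under it Tagln (adjusted p = 0.057) and Acta2 (0.0644) lost their edgeR calls at 3 months, and at 6 months Des lost (0.077) and Tpm2 gained one (0.0477). Low counts limit Cnn1 and Flnc, which had libraries at 0.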
